A study of Mus musculus with 38 samples.

Results

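CTCF-binding profiles from urea ChIP-seq were compared between thymocytes and skin, with 1 list of peaks for each cell type. Both lists were taken whole, so that 20323 thymocyte peaks and 31509 skin peaks entered the comparison, out of 698638 peaks in the 11 lists of the series. In urea ChIP-seq, crosslinked chromatin is spun through urea to strip away whatever is not covalently bound before immunoprecipitation, and the series used it to map SATB1 and CTCF. The thymocytes and the primary epidermal keratinocytes isolated from skin came from C57BL/6 mice wild type for SATB1, and the same lot of a CTCF antibody from Active Motif was used for both. The labels conflict on age: for thymocytes the title gives 6 weeks and the other labels postnatal day 13, and for skin the characteristics give postnatal day 13 and the protocol day 5. The methods of the study state a younger age for skin than either label. The titles also carry a 4 ul mark for thymocytes and a 60 s mark for skin, which the labels do not explain. The study does not state the sex of these animals. Tissue, age, sex, preparation and library therefore cannot be told apart. Neither list had a replicate list to set beside it, so no difference below was tested, and a CTCF list holds no marker genes by which the labelled cell type could be checked.

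CTCF is a zinc finger protein that binds a long DNA motif, blocks the action of enhancers across it and, by stopping the cohesin ring, fixes the ends of chromatin loops and the borders of domains. Most of its sites are occupied in many cell types, while a minority are bound in particular cells only. In lymphocytes CTCF sites are known in the antigen receptor loci, where they take part in looping before V(D)J recombination, and in epidermis the keratins and the cornified envelope proteins lie in dense gene clusters.

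The sequences at the summits show the recognition motif that both lists shared and where it was absent. The first was chosen after its values were seen, as the site with the highest fold enrichment in both lists at once. The other 6 mark genes whose flanks differed most, skin first. At each of these genes the site shown is the flank peak of highest fold enrichment that overlapped no peak of the other list. It is therefore not a typical peak of its gene. Each sequence is the plus strand of mm9, with capitals for the 12 bases that aligned with the core of the CTCF matrix described below. All are centred on the summit, for Rapgef1 that of the thymocyte list, except the site beside Gm13271, which is limited to 30 bases around the match because it lies in a UTR and does not reach the summit.
Rapgef1, both lists, chr2:29475109-29475209: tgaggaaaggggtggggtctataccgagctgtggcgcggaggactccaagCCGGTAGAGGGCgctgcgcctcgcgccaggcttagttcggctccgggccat
Gm10354, skin, chr5:14987127-14987227: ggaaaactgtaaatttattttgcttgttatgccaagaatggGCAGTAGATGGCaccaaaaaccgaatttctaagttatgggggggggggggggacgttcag
Gm13271, skin, chr4:88419850-88419879: ccctcgcgcTCCCCCTGCAGGccagccccg
4930572O03Rik, skin, chr5:15151731-15151831: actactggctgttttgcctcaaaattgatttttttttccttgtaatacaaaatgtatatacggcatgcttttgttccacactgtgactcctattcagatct
Lrrc33, thymocytes, chr16:32202944-32203044: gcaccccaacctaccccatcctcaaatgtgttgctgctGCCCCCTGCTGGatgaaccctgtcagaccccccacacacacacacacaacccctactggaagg
Nacad, thymocytes, chr11:6555028-6555128: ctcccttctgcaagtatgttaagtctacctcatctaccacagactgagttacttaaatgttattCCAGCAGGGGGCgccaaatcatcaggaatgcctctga
Rfc4, thymocytes, chr16:23165701-23165801: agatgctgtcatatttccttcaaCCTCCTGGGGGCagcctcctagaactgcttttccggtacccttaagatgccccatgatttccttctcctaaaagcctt
The site 0.081 kb from the start of Rapgef1, a guanine nucleotide exchange factor gene, had a fold enrichment of 39.5 in thymocytes and 22.7 in skin. Of the 3 skin sites, that beside 4930572O03Rik had no matrix match, although its fold enrichment of 6.16 was above the 5.75 of the site beside Gm10354. The site beside Gm13271 had a fold enrichment of 9.51, lies in an exon of Gm13290 and carries its match on the minus strand. All 3 thymocyte sites had a match, at fold enrichments of 12.8 beside Lrrc33, 8.42 beside Nacad and 9.29 beside Rfc4. All of them lie outside protein-coding genes. Each of these 3 genes had 4 flank peaks that overlapped no skin peak, and 3 at Lrrc33, 3 at Nacad and 1 at Rfc4 had a match. At the skin genes a match was present in 5 of 14 such peaks at Gm10354, 12 of 13 at Gm13271 and 4 of 11 at 4930572O03Rik.

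The matrix was built from the thymocyte peaks alone. Among all words of 8 letters, read on both strands, CCACTAGG was the most concentrated at thymocyte summits, in 1264 of the 101 bp windows at the summit against 36 of the flanking windows. In skin the leading word was GAGGGCGC, in 1429 against 56, and CCACTAGG stood at rank 4, in 1475 against 63. Refining the alignment gave the same consensus from either list, CCANNAGNNGGC, where N stands for positions at which no base reached 70%. Although both lists led to the same letters, the matrix matched 78.4% of the thymocyte summits and 54.7% of the skin summits within 50 bp. Of flanking windows of the same total length it matched 2.00% and 1.65%. The 2.00% was fixed by the match score, which was set at the level that 2% of the thymocyte flanking windows reached. The matrix was fitted to the thymocyte summits, and the part of this in their higher share was not tested. The consensus letters themselves were present at 39.3% of thymocyte and 27.2% of skin summits. The stricter consensus of the leading word alone, CCACTAGGNGGC, was present at 3.62% and 2.44%.

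Most thymocyte sites were also in the skin list, but not the reverse. Of the thymocyte peaks, 16971 (83.5%) overlapped a skin peak by at least 1 bp, and 16843 skin peaks (53.5%) overlapped a thymocyte peak. With the skin list cut to its 20323 peaks of highest −log10 q, the shares were 69.0% of the thymocyte list and 68.4% of the skin list. Peaks in both lists, mostly the same sites, had a match at 81.1% of thymocyte and 73.9% of skin summits. The window follows the summit of each list, and the part of summit placement in the motif shares was not tested. Peaks without a partner had a match in 64.7% of 3332 thymocyte peaks and 32.4% of 14451 skin peaks on the main chromosomes. The skin peaks without a partner were also weaker, with a median fold enrichment of 4.69 against 6.96 for skin peaks with one. In thymocytes these medians were 6.10 and 8.27.

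Strength and motif moved together in both lists. When each list was divided into 4 groups of nearly equal size by −log10 q, the share of thymocyte peaks with a match was 64.0%, 77.6%, 84.6% and 87.5% from the weakest group to the strongest. In skin it was 33.2%, 45.9%, 66.9% and 72.7%, so that the strongest skin group lay below all but the weakest thymocyte group. The share of skin peaks with a thymocyte partner likewise went from 23.8% in the weakest group to 81.0% in the strongest, and that of thymocyte peaks with a skin partner from 64.1% to 96.5%. Fold enrichment and q are scaled within each sample, and the depth of neither sample is known. Its part in the number of weak skin peaks was not tested.

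**Figure D1:**
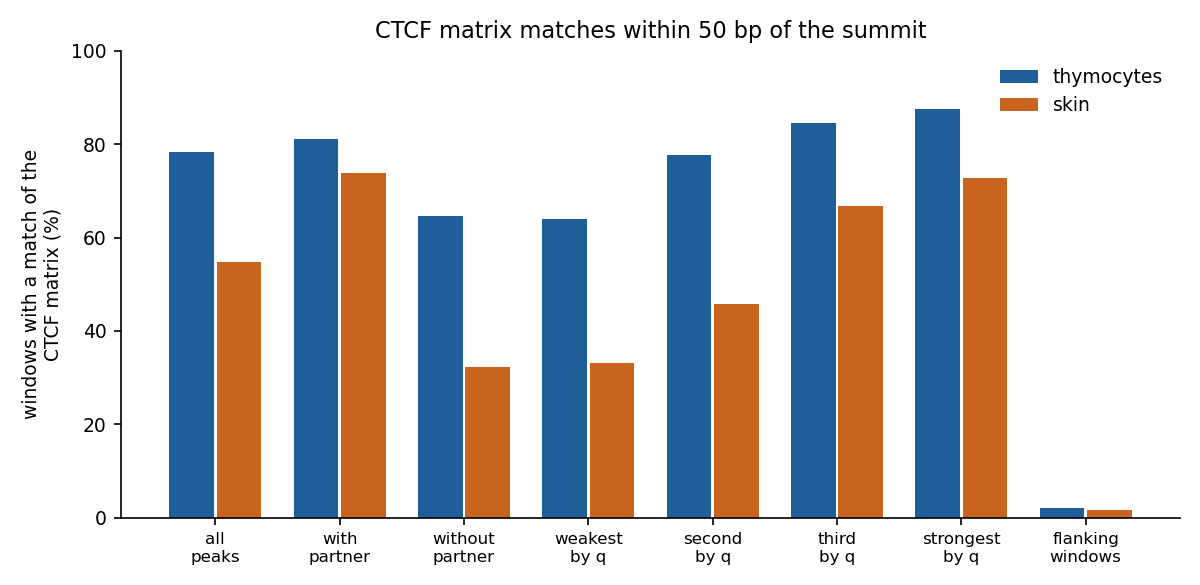
Share of 101 bp windows at the summit with a match of the CTCF matrix (vertical axis, %), for thymocytes (blue) and skin (orange), over all peaks, peaks with and without a partner in the other list, 4 groups by −log10 q from weakest to strongest, and flanking windows. Skin peaks without a partner had a match in 32.4%, while both lists were above 70% among peaks with a partner. Both were at about 2% in the flanks, a level that the match score fixed in thymocytes.

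Motif orientation bears on which pairs of sites can anchor a loop, and its shares were alike in the lists. Among neighbouring peaks with a match, 47.9% of thymocyte pairs and 48.7% of skin pairs pointed the same way, 26.1% and 25.7% faced each other, and 26.0% and 25.6% faced apart. Facing and apart-facing pairs alternate along a chromosome, so their near-equal shares were fixed by the counting. Strands set at random would give shares close to these, so the likeness of the lists is no finding about loops. Facing pairs, the arrangement typical of loop anchors, lay farther apart than the others, with a median of 68.8 kb in thymocytes and 84.5 kb in skin. Pairs that faced apart had medians of 35.3 and 40.0 kb.

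Skin peaks were longer. The median length was 393 bp in skin and 275 bp in thymocytes, with 21.5% of skin and 1.62% of thymocyte peaks over 500 bp. The shortest peaks, whose length the peak caller sets from its estimate of fragment size, measured 215 bp in skin and 174 bp in thymocytes, and 11.3% and 5.38% of the peaks had exactly that length. The difference held site by site, since among 16635 pairs of peaks that overlapped each other and nothing else, the skin peak was longer in 93.1% and the median ratio of lengths was 1.56. Even so the summits agreed, with a median distance of 27 bp and 78.1% of pairs within 50 bp. Length rose with strength, from a median of 202 bp in the weakest thymocyte group to 331 bp in the strongest and from 240 to 508 bp in skin, and in the cut skin list the median was 439 bp. The part of fragment size, which the labels do not give per sample, was not tested.

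**Figure D2:**
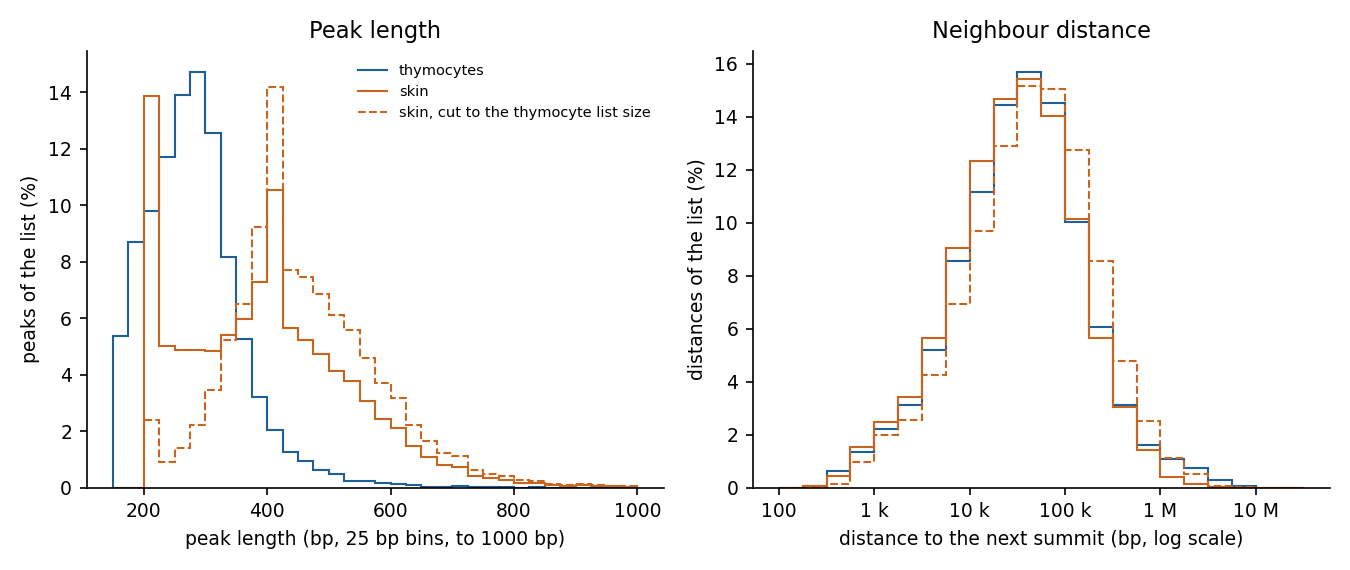
Left, the share of peaks (%) by length in 25 bp bins. Right, the share of distances between neighbouring summits (%) on a log scale, for thymocytes (blue), skin (orange) and skin cut to the thymocyte list size (dashed). The length curves are displaced from each other, with medians of 275 and 393 bp, whereas the distance curves nearly coincide until the list is cut.

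By chromosome, skin had more peaks everywhere, but not in proportion. The 19 autosomes held 8.00 thymocyte peaks and 12.3 skin peaks per Mb together, and the ratio of skin to thymocytes ran from 1.33 on chromosome 19 and 1.34 on chromosome 11 to 1.73 on chromosome 14, with a median of 1.56. Chromosomes 11 and 19 are gene-rich and had the highest densities in both lists, 13.9 and 11.3 peaks per Mb in thymocytes and 18.7 and 15.0 in skin. Chromosome 7 was as gene-rich as 11, at 13.6 protein-coding genes per Mb each, but held 9.15 thymocyte and 13.9 skin peaks per Mb. Across the autosomes the density of peaks followed that of protein-coding genes, with Spearman's rho of 0.87 in thymocytes and 0.93 in skin, while the ratio of skin to thymocytes went the other way, with a rho of −0.57. These are descriptions over chromosomes of the same 2 libraries, which also share their base composition.

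Chromosome X stood lowest among the chromosomes with peaks in both lists. It held 441 thymocyte peaks, 2.65 per Mb, and 866 skin peaks, 5.20 per Mb, a ratio of 1.96 that was above that of every autosome. Set against the autosomes of its own list, X had 0.331 of their density in thymocytes and 0.423 in skin. In the cut skin list X held 425 peaks and 0.321 of the autosomal density, so that the larger share of X in skin lay among its weaker peaks. Chromosome Y held no thymocyte peak and 12 skin peaks, over 2.70 Mb of known sequence. The part of sex, which the study does not state, in the X and Y counts was not tested.

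**Figure D3:**
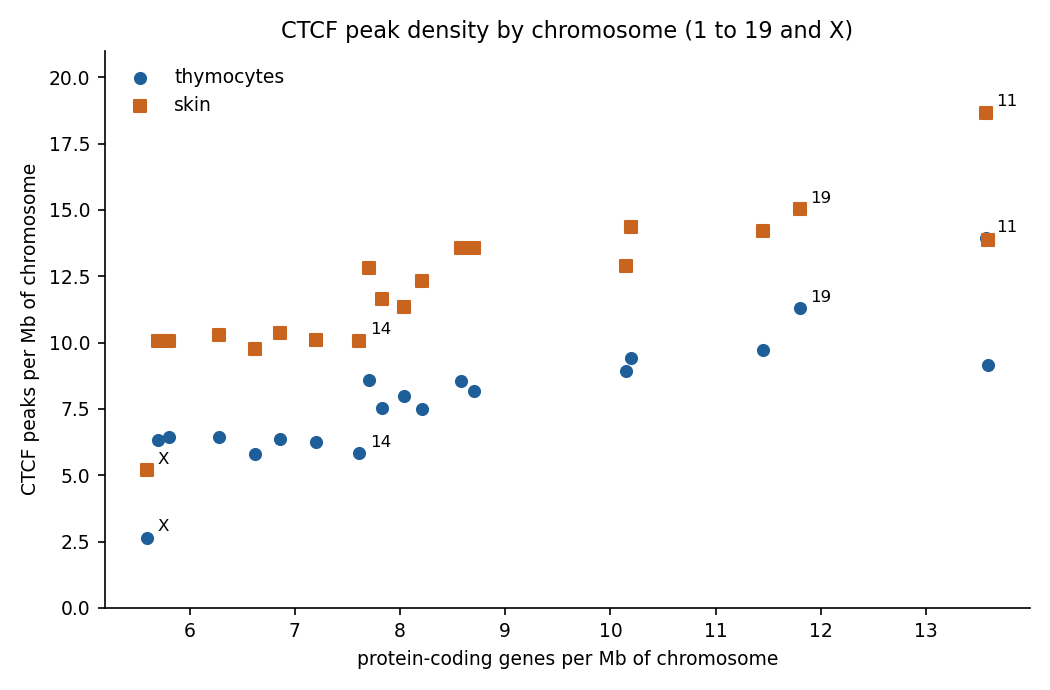
CTCF peaks per Mb of chromosome (vertical axis) against protein-coding genes per Mb (horizontal axis) for chromosomes 1 to 19 and X, in thymocytes (circles) and skin (squares). Chromosome 11 is highest in both lists, at 13.9 and 18.7 peaks per Mb, and X is lowest, at 2.65 and 5.20.

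In proportion, the lists differed most in gene-poor sequence. Bins of 1 Mb with 15 or more protein-coding gene starts held 18.6 thymocyte and 24.5 skin peaks per Mb, a ratio of skin to thymocytes of 1.31, while bins with 0 to 2 starts held 1.19 and 3.96, a ratio of 3.33. Gene-rich sequence was thus 15.7 times as dense in peaks as gene-poor sequence in thymocytes and 6.18 times in skin. The ratio of skin to thymocytes fell at every step of gene density, from 6.13 in bins with no gene start through 2.93, 1.87, 1.56, 1.42 and 1.34 to 1.28 in bins with 25 or more. The cut skin list kept this slope, with 2.25 peaks per Mb in gene-poor bins and 16.6 in gene-rich bins. At equal size skin was therefore 1.89 times as dense as thymocytes in gene-poor sequence and 0.892 times in gene-rich sequence.

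Sequence without any CTCF peak was far more common in thymocytes. Of 761 gene-poor bins, 449 had no thymocyte peak and 78 no skin peak, and 187 had none in the cut skin list. Over all 2564 bins, 487 had a skin peak and no thymocyte peak and 3 the reverse, with the full lists. Bins with no peak numbered 592 in thymocytes and 108 in skin, and 245 in the cut skin list. Gene-poor skin peaks carried the motif less often than gene-rich ones, with a match in 40.5% of 3001 against 58.6% of 11301. In thymocytes these shares were 72.7% of 902 and 78.9% of 8611. When peaks with a match were counted alone, gene-rich sequence was 17.0 times as dense as gene-poor sequence in thymocytes and 8.95 times in skin, and for peaks without a match 12.1 and 4.30 times.

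**Figure D4:**
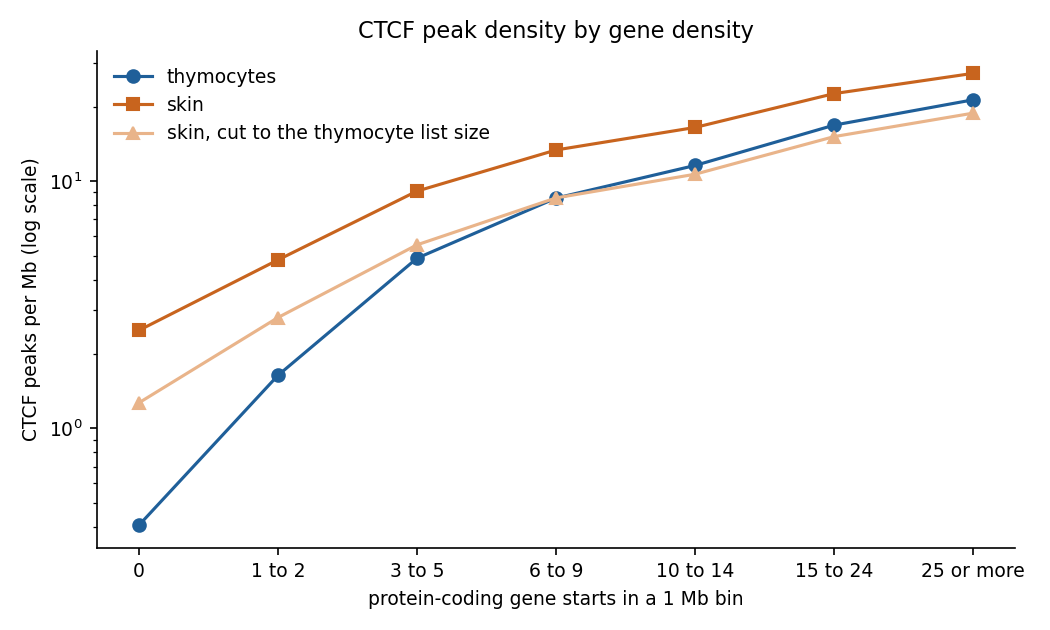
CTCF peaks per Mb (vertical axis, log scale) in 1 Mb bins grouped by the number of protein-coding gene starts (horizontal axis), for thymocytes (circles), skin (squares) and skin cut to the thymocyte list size (triangles). The lists are closest in bins with 25 or more starts, at 21.3 and 27.3 per Mb, and farthest apart in bins with no start, at 0.406 and 2.49 per Mb.

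The same contrast appeared in the distance between neighbouring summits. Although skin had 1.54 times as many peaks on these chromosomes, its median distance of 32.0 kb was close to the 35.8 kb of thymocytes, and the lists differed mainly in their long gaps. The mean distance was 82.6 kb in skin and 127 kb in thymocytes. Gaps over 1 Mb numbered 181 in skin and 445 in thymocytes, where they spanned 1028 Mb in all against 293 Mb in skin. In the cut skin list the median was 47.6 kb, longer than in thymocytes, yet its gaps over 1 Mb numbered 345. With 10000 peaks of each list the order of these gaps turned, with 520 in thymocytes and 541 in skin. Distances under 1 kb made up 2.02% in thymocytes and 2.05% in skin.

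The thymocyte gaps over 1 Mb held 3.39 gene starts per Mb and 3714 skin peaks, 11.9% of that list, whereas the skin gaps held 54 thymocyte peaks, or 0.267%. The longest thymocyte gap covered 11.7 Mb at chr14:87864199-99541653, with 36 skin peaks inside it, and holds the protocadherin genes Pcdh9 and Pcdh20, Klhl1 and the transcription factor gene Dach1. Another of 8.70 Mb at chr4:73877567-82579664 held 33 skin peaks and contains Nfib, a transcription factor gene, the phosphatase gene Ptprd and Tyrp1, an enzyme gene of melanin synthesis. A gap of 8.35 Mb at chr14:106900012-115254030, around Slitrk1, Slitrk5 and Slitrk6 of neuronal adhesion, held 20. These gaps were picked after values were seen. Longer than the last of them, gaps of 9.54 and 9.51 Mb on chromosome X held 18 and 9 skin peaks. The gap of 8.59 Mb on chromosome 6 held 18. The longest skin gap, 7.78 Mb at chrX:23747383-31530421, held 1 thymocyte peak.

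A larger share of the thymocyte list lay at gene starts. Of the thymocyte summits, 2215 (11.0%) were within 1 kb of the 5′ end of a protein-coding gene, against 2560 (8.20%) in skin and 1.65% of the genome. In the cut skin list the share was still 8.25%. The peaks in both lists had like shares, 9.44% and 9.35%, and the lists parted in the peaks without a partner, at 18.6% in thymocytes and 6.87% in skin. Summits more than 100 kb from any start made up 10.8% of thymocyte peaks and 26.1% of skin peaks without a partner. Exons held 8.06% of thymocyte and 8.33% of skin summits and introns 40.5% and 39.6%, so that the position within genes was alike. Counted by gene, 1681 starts had a peak within 1 kb in both lists, 632 in thymocytes alone and 962 in skin alone. In all, 2313 starts had a thymocyte peak and 2643 a skin peak, but 1743 in the cut skin list, so this order turned with list size. Peaks at starts had the motif less often than others, 65.4% in thymocytes and 47.6% in skin, and among those without a partner 49.1% and 20.5%.

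Overlap with the SATB1 lists differed most for peaks without a partner. Of the skin CTCF peaks without a thymocyte partner, 8.03% and 7.25% overlapped a peak of the 2 urea SATB1 lists from skin. The shares were 1.46% in both for skin peaks with a partner, and 4.52% and 4.16% over all skin peaks. Of the thymocyte peaks without a partner, 1.19% and 1.25% overlapped the 2 urea SATB1 lists from thymocytes, against 1.58% and 1.50% with a partner. Standard ChIP-seq of SATB1 in thymocytes, which skips the urea step, overlapped thymocyte CTCF peaks with and without a partner alike, at 53.8% and 48.1% for replicate 1 and 23.7% and 25.1% for replicate 2. Skin peaks with a partner had 53.9% and 23.9%, and those without one 13.6% and 12.5%. The in vitro map of base-unpairing regions (BURs), the sequences SATB1 binds directly, overlapped 2.90% of thymocyte and 4.29% of skin peaks. For peaks without and with a partner these shares were 2.89% and 2.90% in thymocytes, and 5.21% and 3.50% in skin. The overlap that peak number and position alone would give was not measured.

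For genes, the peaks in the 50 kb before the gene start and after its end were counted, leaving out the gene body, over 22367 protein-coding genes. Thymocytes had 1.92 and skin 2.50 flank peaks per gene on average, with equal counts at 9804 genes (43.8%). A difference of at least 2 peaks in favour of skin was found at 3952 genes, 17.7% of all, and in favour of thymocytes at 542 genes, 2.42%. In the cut skin list these were 3.64% and 10.1%, so the balance between the directions turned with list size. Differences ran from 14 more in skin to 4 more in thymocytes. With the full lists, of which skin is the larger, no thymocyte peak but at least 1 skin peak flanked 2741 genes, and 370 had the reverse.

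Some of the largest differences in favour of skin lay among duplicated genes. Gm10354 and 4930572O03Rik, on chromosome 5 beside genes of the Speer family, had no flank peak in thymocytes and 14 and 11 in skin, and 4 and 5 in the cut list. Gm13271 (chr4:88400772-88401320, plus strand) lies among copies related to Ifnz, the interferon zeta gene, and had 4 flank peaks in thymocytes and 17 in skin, 16 of which remained in the cut list. The 13 skin peaks there without a partner included 12 with a match, and all 12 were the same sequence, CCTGCAGGGGGA as read on the motif strand. At Gm3404 5 peaks shared CCACTAGAGGGC, and at Pls3, which encodes the actin bundling protein plastin, 5 shared CCGCTTGATGGC. At Sfi1, a centrosome gene at the start of chromosome 11 with 5 and 16 flank peaks, the 11 skin peaks without a partner had no match. Of its 16 skin peaks, 1 lay in a region where every list of the series has a peak. Only reads with a unique hit were kept, so peaks among the near-identical copies related to Speer and Ifnz are uncertain. How uniquely reads can be placed at any of these genes was not measured.

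The remaining genes named for skin had 7 to 9 more peaks. Gm10720, at the start of chromosome 9, had 19 in thymocytes and 28 in skin, and 10 of the 28 lay in regions where every list of the series has a peak. Hspa1l lies beside Hspa1a and Hspa1b, genes for stress-inducible chaperones, in a dense stretch of chromosome 17, and had 4 and 12. Pls3 had 1 and 9, Gm3404 and Gm17293 had 0 and 8, and 4930528F23Rik had 0 and 7. The excess did not remain at Pls3 and Gm17293 in the cut list, where they had 1 and 0 peaks.

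In favour of thymocytes, 8 genes had 4 more peaks than in skin. Lrrc33, which encodes a leucine-rich repeat protein, Nacad, Rfc4, a subunit of the clamp loader of DNA replication, and Rftn1, a lipid raft protein of lymphocytes, each had 5 flank peaks in thymocytes and 1 in skin. E430018J23Rik, among zinc finger genes on chromosome 7, and Mns1 had 6 and 2, and Cyhr1 and D6Mm5e had 7 and 3. At a difference of 3 peaks 101 genes were tied, of which the naming rule took 4930412O13Rik and Cd40lg. Cd40lg, the T cell ligand of CD40, had 3 flank peaks in thymocytes, 2 of them with a match, and none in skin. 4930412O13Rik lies within the span of Gata3, which encodes a master regulator of T cells, and had 3 peaks, all with a match, against none. Of the 38 thymocyte peaks without a partner in the flanks of these 10 genes, 24 had a match (63.2%), against 39 of the 103 skin peaks without a partner (37.9%) at the 10 genes named for skin. These lie near the shares over all peaks without a partner, 64.7% and 32.4%. Of the 39, 12 are the copies of a single sequence at Gm13271. Other single sequences make up 5 at Gm3404, 5 at Pls3 and 3 at 4930572O03Rik, so the 39 are not independent sites. Among the genes named for thymocytes, the most copies of a sequence within 1 gene were 2, at D6Mm5e.

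**Figure D5:**
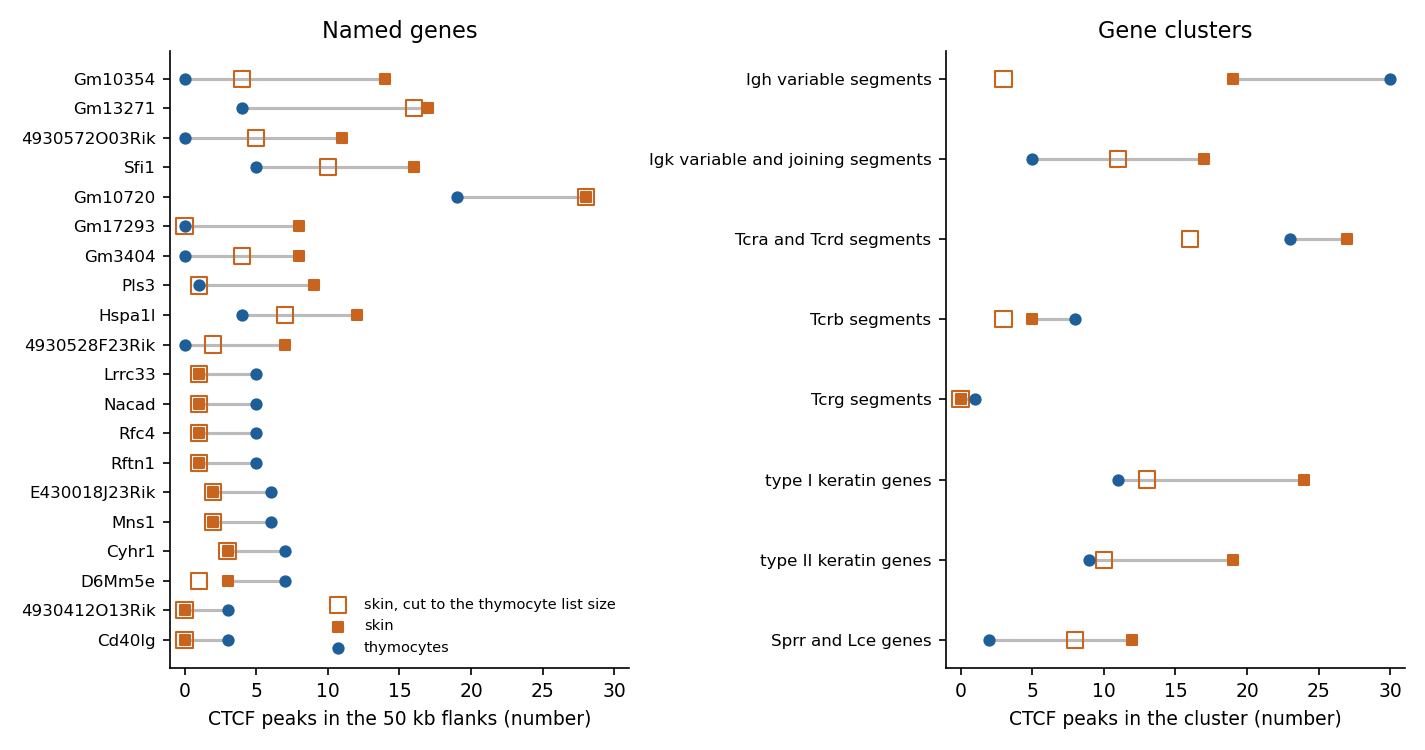
Number of CTCF peaks in thymocytes (circles), skin (filled squares) and skin cut to the thymocyte list size (open squares). Left, peaks in the 50 kb flanks of the 20 named genes, which reach 28 at Gm10720. Right, peaks within the span of antigen receptor and epidermal gene clusters, where the variable segments of Igh had 30 in thymocytes and 19 in skin and the keratin clusters had more in skin.

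Lists of genes of the cell types were read against the shares over all genes, which were not matched for flank peak number. The T cell genes had a mean of 3.03 flank peaks in thymocytes, against 1.92 over all genes. A gene with fewer than 2 flank peaks in thymocytes cannot have 2 more there. Such a difference was therefore easier to reach among T cell genes, in the cut list too, and the shares are not a like background. Of 33 T cell genes found, 3 had at least 2 more flank peaks in thymocytes (9.09%, against 2.42% of all genes) and 3 at least 2 more in skin (9.09%, against 17.7%), with a median difference of 0, the same as over all genes. Cd3d had 4 flank peaks in thymocytes and 2 in skin, Cd3e 5 and 3, and Cd8b1 3 and 1. Cd3d and Cd3e, subunits of the T cell receptor complex, are neighbours and share flank sequence, so they are not separate observations. Bcl11b, a factor of T cell commitment, went the other way with 2 and 4, and Lat and Tcf7 were the other 2 T cell genes with 2 more in skin. In the cut list 10 of the 33 had at least 2 more in thymocytes, against 10.1% of all genes, among them Rag1 with 4 and 1, Lef1 with 5 and 2 and Cd247 with 5 and 2. These 10 include Cd8a with Cd8b1, Cd3d with Cd3e and Rag1 with Rag2, neighbours that share flank sequence.

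Of 33 keratinocyte genes, 9 had at least 2 more flank peaks in skin (27.3%, against 17.7% of all genes) and none in thymocytes, with a median difference of 1. Lor, the gene of the cornified envelope protein loricrin, had 0 flank peaks in thymocytes and 4 in skin, and Krt10, a keratin of the suprabasal layers, had 3 and 7. Flg, which encodes filaggrin, and Dsg3, a desmosomal cadherin gene, had 0 and 2 each. In the cut list 3 of the 33 kept such a difference, against 3.64% of all genes, and these were Lor, Krt10 and Dsg3. Trp63 and Klf5, epidermal transcription factor genes, had no flank peak in either list. Of 15 fibroblast, endothelial and melanocyte genes and of 11 B cell and myeloid genes, none differed by 2 in either direction. Members such as Krt14, Krt15 and Krt17 lie in shared flanks. Among 14 CTCF and cohesin genes, Yy1 had 2 and 4 and Zfp143 0 and 2, Pds5a had 1 and 0, and Ctcf itself had 7 and 6.

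Whole clusters, chosen after values were seen, differed in both directions. The span of the variable segments of Igh, the immunoglobulin heavy chain locus (chr12:114891502-117238672), held 30 thymocyte and 19 skin peaks, and 3 in the cut skin list. Of these, 23 thymocyte peaks had no skin partner, 17 of them with a match, and 12 skin peaks had no thymocyte partner, 1 of them with a match. The T cell receptor beta segments (chr6:40841295-41508370) held 8 and 5, and 4 of the thymocyte peaks had no partner, all 4 with a match. The alpha and delta segments (chr14:53047603-54838515) held 23 and 27, with 11 thymocyte and 15 skin peaks without a partner, of which 10 and 9 had a match. At the immunoglobulin kappa segments (chr6:67505630-70673921) there were 5 in thymocytes and 17 in skin, and 3 of the 13 skin peaks without a partner had a match. In the cut skin list the beta segments held 3, the alpha and delta segments 16 and the kappa segments 11. The order at the alpha and delta segments thus turned with list size.

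In the epidermal clusters every thymocyte peak had a skin partner, and skin added more. The type I keratin genes (chr11:99094075-100131185) held 11 thymocyte and 24 skin peaks, the type II keratin genes (chr15:101177875-101862457) 9 and 19, and the Sprr and Lce genes of the cornified envelope (chr3:92019757-92822982) 2 and 12. In the cut skin list they held 13, 10 and 8, so that only the last remained well above thymocytes. Of the skin peaks without a partner, 5 of 13, 3 of 10 and 5 of 10 had a match. Among gene families, 21 of 51 keratin genes (41.2%) and 20 of 40 Hox genes (50.0%) had at least 2 more flank peaks in skin, against 17.7% of all genes, and none had 2 more in thymocytes. In the cut list these were 2 keratin genes (3.92%) and 5 Hox genes (12.5%), against 3.64% of all genes. Members of a cluster share flanks, so these counts are not of independent genes. The Hox genes also had more flank peaks in thymocytes than all genes, with means of 3.20 and 1.92, so the share over all genes is not a like background for them. Of 1113 olfactory receptor genes, 84.9% had no flank peak in thymocytes and 71.2% none in skin, with means of 0.255 and 0.466.

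The body of Satb1, the gene the series is about, held 2 thymocyte peaks and 11 skin peaks, a contrast that was noticed after values were seen. In both lists 1 peak lay just inside the gene start, at 0.258 kb in thymocytes and 0.300 kb in skin. The other 10 skin peaks had their summits in exons, touched 10 of the 11 coding exons of the annotation, and had no thymocyte partner and no matrix match. Their fold enrichment ran from 5.47 to 32.3 and their −log10 q from 866 to 5609, against a median of 19.2 for the skin list, and the strongest by q stood at rank 23 of the list. Among 22367 genes, Satb1 was the only one with skin peaks without a partner in 4 or more exons, the next having 3. Both urea SATB1 lists from skin and the in vitro BUR map also had peak summits in 10 exons of Satb1, whereas the urea SATB1 lists from thymocytes and brain had none and the 2 standard SATB1 lists had 2 each. The cause was not tested. Whether the reads of these 10 peaks came from the genomic locus cannot be told from the lists, so they may not be CTCF sites of the Satb1 gene. They lie in the gene body and enter none of the flank counts of Satb1, which were 0 in both lists.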

How the data were processed

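Urea ChIP-seq of CTCF was available as 1 list for thymocytes and 1 for skin, and samples were grouped by their labels. The authors mapped reads with Bowtie2 2.3.1 to mm9, keeping unique hits, and the peaks of a sample were those MACS2 2.2.7 called under a q-value of 0.01. Whether an input served as control is not given in the sources used here. The deposited lists give positions, a display score that was not used, the summit's fold enrichment, a ratio over local background, −log10 p-values and −log10 q-values, and the summit. The thymocyte list prints 5 decimals and the skin list 6 significant digits, for a reason not given in the sources used here. The lists hold no counts, so the depth of each sample is unknown and no interval was given.

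Positions were compared with NCBIM37, the same assembly, and protein-coding genes of GENCODE M1, on chromosomes 1 to 19, X and Y, with scripts in Python 3.11.15 using pysam 0.24.0, scipy 1.17.1 and numpy 2.4.6. Peaks per Mb used the chromosome length, and bins used sequence without N. A match of the motif matrix needed a score that 2% of the flanking windows reached. With 1 list a group there was no test. Alternatives tried were lists of equal size, peaks with −log10 q of 5 or more, other bin, gene start, motif and flank settings, and removal of regions where every list has a peak. The matrix, 10000 peaks of each list, the cut by fold enrichment, the gene clusters and families and the Satb1 peaks were chosen after seeing the data. The members and the gene lists were chosen with earlier results of these data known. Named genes were the 10 with the largest flank difference in each direction whose windows did not overlap, and up to 4 of each gene list with the largest difference. Any other gene was named after its values were seen. Scripts were tested on simulated data. The second thymocyte CTCF sample is not analysed here.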

Additional observations from a re-analysis of the deposited data

Results flagged for a closer look

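Both lists held peaks outside chromosomes 1 to 19, X and Y, which no measure per Mb used. On unplaced and random sequences there were 104 thymocyte peaks, 84 of them (80.8%) with a partner in skin, and 290 skin peaks, 79 of them (27.2%) with a partner in thymocytes. Their median fold enrichment was 7.63 and 4.35, and 70 and 132 overlapped a BUR. On mitochondrial DNA the skin list had 4 peaks, with fold enrichments of up to 3.38, and the thymocyte list had none. These sequences carry other names in the reference used here, and their content was not analysed.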

How the results depend on the processing

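The order of the lists in peak length, in the ratio of gene-rich to gene-poor density, in start-site share and in motif share was the same under each alternative run for both, and the order in X density, in neighbour distance, in gaps over 1 Mb and in the direction of gene calls turned with list size. With a −log10 q of at least 5, the median length was 277 bp in thymocytes and 396 bp in skin, and the median neighbour distance in skin 32.7 kb. With skin cut to equal size, its median length was 439 bp, X against autosomes 0.321, gene-rich against gene-poor density 7.40 (6.95 by fold enrichment), neighbour distance 47.6 kb and the strict motif share 3.22%, and 814 genes were called higher in skin and 2255 in thymocytes. Bins of 2 Mb gave density ratios of 17.0 in thymocytes and 6.49 in skin, and classes by GC content 26.7 and 8.14. Joining summits within 1 kb gave distances of 37.4 and 33.3 kb. A 5 kb limit put 23.5% and 19.6% of summits at starts, and any transcript start 13.0% and 9.86%. With 10000 peaks of each list, density ratios were 23.0 and 9.73, distances 68.1 and 92.7 kb, gaps over 1 Mb 520 and 541 and start-site shares 13.2% and 10.1%. The strict motif anywhere in the peak gave 4.01% and 2.99%, and the matrix 78.4% and 54.7%. At a difference of at least 3 peaks, 1283 genes were higher in skin and 109 in thymocytes. No paired analysis was possible because each cell type had 1 list.

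The precision is limited by unknown depth and by the absence of replicate lists. Peak number, length and q depend on depth, fragment size and enrichment, which cannot be told apart here from tissue or age. Uniquely placed reads leave duplicated genes uncertain.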
